A study of Homo sapiens with 12 samples.

Results

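Described here are the 3 RNA libraries of SNU449-Axl- cells that had been made resistant to regorafenib (Rego), out of 12 libraries in the series. They were chosen by their labels, which give the genotype as lacking Axl and the treatment as long-term Rego. Each gene was set against the other 9 libraries. A gene was counted as private to the resistant SNU449-Axl- cells when their 3 libraries all lay above, or all lay below, every one of the 9 others, with spike-in RNAs left out.

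SNU449 is a human hepatocellular carcinoma cell line of mesenchymal-like character, and SNU449-Axl- is a derivative of it in which AXL was disrupted with CRISPR/Cas9. Both lines were sequenced as naive cells, called controls here, and as cells adapted to Rego, which gives 4 populations with 3 libraries each. The adaptation started at 50% of the IC50 and rose by the same amount every 2 weeks up to 2 times the IC50. A note in the labels on further Rego given at each splitting stands on all 12 libraries, the naive ones too, and taking the controls as not exposed is an assumption. All populations were grown in the same serum-containing medium, and the labels do not say whether the Axl-deficient line is 1 clone or when each library was prepared. Libraries of a population are technical triplicates by the series record, so that every SD and p-value given here covers the spread between libraries of 1 population. Effects of Rego, of the loss of Axl and of other differences between separately kept populations cannot be told apart.

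The 3′ ends of mRNAs were sequenced, and the library values are numbers that the authors made by raising 2 to a variance-stabilized level corrected for preparation. They start at 12 and compress low levels, so that a fold between library values understates the fold in read counts for genes with few counts. The depth of the libraries is unknown. A level is log2(value + 1), a difference is the mean level of the resistant SNU449-Axl- libraries minus the mean level of the other 3 populations unless another population is named, a fold is 2 raised to that difference, and a mean normalized count is the authors' average over all 12 libraries.

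The Axl genotype showed in the libraries. AXL (ENSG00000167601.12, chromosome 19 of GRCh38, 41219223 to 41261766) had library values of 50, 38 and 52 in the resistant SNU449-Axl- cells and of 35, 53 and 33 in the SNU449-Axl- control cells. The 6 libraries of SNU449 cells had values of 715 to 1271. The Axl-deficient populations overlapped with each other and lay apart from both SNU449 populations. Against the SNU449-Axl- control cells the difference of AXL was 0.22, which was not called (limma, Benjamini-Hochberg adjusted p = 0.670), so that AXL is not private to the resistant cells. Rego resistance is not defined by a gene as the Axl genotype is, and that label was not checked.

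Of the defining markers of hepatocytes, 3 of 8 were listed in the table, namely AFP, APOA1 and ASGR1. ALB, APOA2, TTR, SERPINA1 and HNF4A had been removed as weakly expressed. The most abundant of the listed ones was AFP, with a mean normalized count of 4.26, and their summed library values ran from 64 to 87 in all 12 libraries, close to the floor of the scale. All 6 mesenchymal-like markers were listed, led by VIM, with summed values of 20762, 21251 and 18589 in the resistant SNU449-Axl- cells and of 16869 to 30648 elsewhere. VIM alone had 16754, 15360 and 15716 in the resistant SNU449-Axl- cells, so that these sums mostly describe VIM. Against the mean of the other populations FN1 was called higher and AXL, the disrupted gene, lower. Leukocyte markers were at the floor (3 of 6 listed, CD14 the most abundant, sums of 70 to 95), and none of 5 endothelial markers was listed. The libraries thus held the mRNAs of a mesenchymal-like line. The hepatocyte, leukocyte and endothelial markers searched for here were at the floor or not listed.

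AXL is a receptor tyrosine kinase of the TAM family that binds GAS6 and is abundant in mesenchymal-like tumour cells. Rego is an oral inhibitor of several kinases, among them VEGF, FGF and PDGF receptors, KIT, RET and RAF, and is given in advanced hepatocellular carcinoma after sorafenib. Long exposure of tumour cells to kinase inhibitors is known to be accompanied by changes in drug transporters, detoxifying enzymes, receptor usage and the epithelial or mesenchymal state, and these groups of genes are described here by name.

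Of 15601 genes, 465 (2.98%) were private above and 292 (1.87%) were private below. The same count gave 533 above and 595 below for the SNU449 control cells, 512 and 404 for the Rego-resistant SNU449 cells, and 512 and 454 for the SNU449-Axl- control cells. The resistant SNU449-Axl- cells had the fewest private genes of the 4 populations, 757 against 916, 966 and 1128. At the edge of the rule, ACSS1 was just inside on the high side (160 to 172 against 55 to 159) and PPL just outside (105 to 114 against 20 to 105). PKM was just inside on the low side (1655 to 2149 against 2168 to 3744) and ASF1A just outside (57 to 68 against 68 to 178). Leaving out a library makes the rule easier to pass, and the count above became 726 without library 1 and 765 without library 3 of the resistant SNU449-Axl- cells. The count below became 473, 445 and 552 without libraries 1, 2 and 3 of these cells.

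The private genes above were spread over the levels of expression much like all genes, with 66.2% at a mean normalized count of at least 20 and 23.9% under 10, against 66.5% and 25.3% of all genes. Those below leaned to higher levels, with 89.7% at least 20 and 5.82% under 10. Protein-coding genes made up 83.4% of the private genes above, 95.5% of those below and 79.1% of all genes, and lncRNAs 11.6%, 3.77% and 14.4%. The median difference was 0.63 above and -0.53 below. In 100 genes above and 22 below the difference exceeded 1 in size. The population nearest to the resistant SNU449-Axl- cells was the Rego-resistant SNU449 cells for 184 of the genes above, the SNU449-Axl- control cells for 177 and the SNU449 control cells for 104. Below, these numbers were 92, 109 and 91.

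Against the mean of the other 3 populations, limma called 487 genes higher (3.12% of those tested) and 252 lower (1.62%) at a Benjamini-Hochberg adjusted p under 0.05. These calls fell to 223, 173 and 242 higher and to 58, 53 and 87 lower without libraries 1, 2 and 3 of the resistant SNU449-Axl- cells, and to 151 lower without library 2 of the SNU449-Axl- control cells. A stricter test asked that the population differ from each of the other 3 in the same direction, and it called 30 genes higher (0.192%) and 6 lower (0.0385%). Without library 2 of the resistant SNU449-Axl- cells it called 15 higher. Of the 25 genes named by rule that passed this test, 14 kept the call with any 1 library left out, and the others lost it at least once, TJP1 in 10 of the 12 fits, BST2 in 9, S100A16 in 7, FA2H in 6, S100A4 and CYP3A5 in 3, SPP1, PLAAT4 and LINC01444 in 2 and FGB and ANKRD30B in 1. Of the private genes, 283 above and 119 below were called against the mean, and 30 and 6 against each population. Both counts use the same libraries as the rule and describe it.

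By pairs, the resistant SNU449-Axl- cells had 396 genes higher (2.54%) and 282 lower (1.81%) than the SNU449-Axl- control cells, 678 in all. Against the Rego-resistant SNU449 cells these were 381 (2.44%) and 301 (1.93%), 682 in all. Against the SNU449 control cells they were 683 (4.38%) and 427 (2.74%), 1110 in all. The comparisons share the resistant SNU449-Axl- libraries. Without libraries 1, 2 and 3 of these cells, the totals were 307, 205 and 363 against the SNU449-Axl- control cells, 275, 219 and 365 against the Rego-resistant SNU449 cells, and 628, 576 and 653 against the SNU449 control cells. Library 2 of the SNU449-Axl- control cells took the first total to 243 when left out. Libraries 1, 2 and 3 of the Rego-resistant SNU449 cells took the second to 374, 335 and 394, and library 2 of the SNU449 control cells took the third to 630.

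All differences are relative to the bulk of genes, whose median difference was 0.01. The 15 spike-in RNAs used for a scaling check had a median level of 6.44, 6.74 and 6.48 in the resistant SNU449-Axl- libraries. In the SNU449-Axl- control libraries it was 6.48, 6.73 and 6.77, and in the SNU449 libraries it was 6.86 to 7.13. Centring each library on its spike-in RNAs moved the median difference of all genes to 0.34 and gave 4106 genes called higher and 62 lower. The centring raised the difference of every gene by 0.33, so that a call as higher that is kept on that scale is no check of it. Of the genes called with the deposited scaling, all 487 called higher were also called higher on that scale, whereas 62 of 252 were still called lower. The counts of genes below and lower therefore hold relative to the bulk of genes, and whether the cells held more mRNA for each amount of spike-in RNA was not tested.

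**Figure D1:**
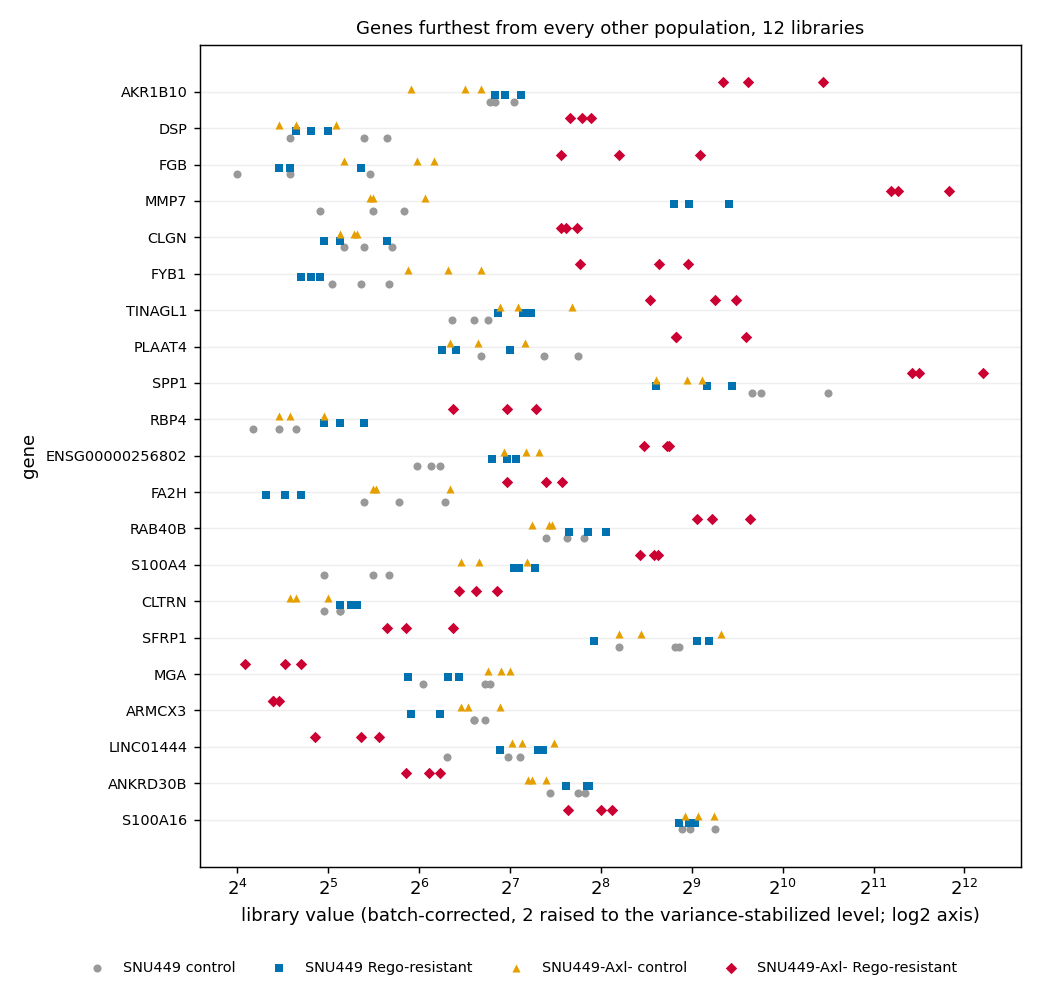
Library values on a log2 axis of 21 private genes, with 1 point per library and 3 libraries per population. These stood furthest from every other population among private genes called in both tests with a mean normalized count of at least 20. Y-linked genes and XIST were left out. The red diamonds of the resistant SNU449-Axl- cells lie to the right of all 9 other points in 15 genes and to the left in 6.

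Among the genes named by rule, the largest rise was that of MMP7, which encodes matrilysin, a secreted metalloproteinase made by epithelial and tumour cells. MMP7 (ENSG00000137673.9, chromosome 11, 102520508 to 102530750) had library values of 2474, 3652 and 2346 in the resistant SNU449-Axl- cells. Values were 500, 447 and 680 in the Rego-resistant SNU449 cells, 45, 44 and 67 in the SNU449-Axl- control cells and 57, 45 and 30 in the SNU449 control cells. MMP7 was thus high in both resistant populations, near the floor in both controls, and highest without Axl. The fold was 26.0 and the difference 4.70 (SE 0.213, limma, Benjamini-Hochberg adjusted p = 2.22e-10). The difference was 2.37 from the Rego-resistant SNU449 cells and 5.73 from the SNU449-Axl- control cells.

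The promoter of MMP7 is shown because it belongs to the gene with this rise and holds a match to the AP-1 motif TGANTCA, searched on both strands and given in capitals. The window spans 250 bases before to 50 after the start of the gene in RefSeq, build GRCh38.p14, minus strand, chr11:102530698-102530997, and the first base of the match lies 67 bases before the start. Among the 35116 promoters of this length, 7.71% hold the motif, and it was present in 2 of the 20 promoters found for the 26 genes named by rule, those of MMP7 and CLTRN. A match describes letters and not binding.
MMP7: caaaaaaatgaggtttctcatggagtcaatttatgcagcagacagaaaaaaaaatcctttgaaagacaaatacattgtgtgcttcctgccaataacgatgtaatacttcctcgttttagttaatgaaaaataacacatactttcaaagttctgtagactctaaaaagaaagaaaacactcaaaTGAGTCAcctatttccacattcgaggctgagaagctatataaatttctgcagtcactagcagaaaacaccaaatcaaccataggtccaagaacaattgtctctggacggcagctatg

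AKR1B10 is an aldo-keto reductase that reduces aldehydes and retinal and a known target of the transcription factor NRF2. Among the genes named by rule it stood furthest from its nearest population. AKR1B10 (ENSG00000198074.10, chromosome 7, 134527567 to 134541412) had values of 650, 1395 and 785, against 60 to 139 in the 9 other libraries. All 3 other populations lay in this narrow band. The fold was 8.29 and the difference 3.05 (SE 0.212, limma, Benjamini-Hochberg adjusted p = 9.32e-08). In mean normalized counts, solved from the authors' averages over pairs of populations, AKR1B10 had 1083 in the resistant SNU449-Axl- cells and 96.7, 70.9 and 84.5 in the SNU449 control, Rego-resistant SNU449 and SNU449-Axl- control cells. AKR1B10 has the close copy AKR1B15, and reads of the pair may be hard to assign.

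Desmoplakin, encoded by DSP, ties desmosomes to keratin filaments and is a gene of epithelial cells. DSP (ENSG00000096696.15, chromosome 6, 7541338 to 7586714) had values of 203, 221 and 237 in the resistant SNU449-Axl- cells and of 22 to 50 in the other 9 libraries. It was close to the floor in every other population. The fold was 7.07 and the difference 2.82 (SE 0.201, limma, Benjamini-Hochberg adjusted p = 1.06e-07).

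Osteopontin, a secreted phosphoprotein that binds integrins and CD44, is encoded by SPP1 and was the most abundant of the private genes named by rule, with a mean normalized count of 1512. SPP1 (ENSG00000118785.15) had values of 2742, 4725 and 2887. It had 1446, 813 and 867 in the SNU449 control cells, 391, 575 and 696 in the Rego-resistant SNU449 cells and 554, 389 and 494 in the SNU449-Axl- control cells. Each single change from the SNU449 control cells went with lower values, while the resistant cells without Axl had the highest. The difference was 2.39 (SE 0.222, limma, Benjamini-Hochberg adjusted p = 2.82e-06), and 1.73 from the nearest population, the SNU449 control cells.

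FYB1 encodes an adaptor protein known from T cells and platelets. Its values were 399, 496 and 219 in the resistant SNU449-Axl- cells, 80, 59 and 103 in the SNU449-Axl- control cells and 26 to 51 in the SNU449 cells (7.67-fold, difference 2.94). The leukocyte markers listed in the table stayed near the floor in all libraries. Calmegin (CLGN), a chaperone of the endoplasmic reticulum best known from testis, had 189, 214 and 196 against 31 to 52 (4.95-fold, difference 2.31). Both genes were called against each population (limma, Benjamini-Hochberg adjusted p = 0.000614 for FYB1 and 2.58e-05 for CLGN).

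PLAAT4 is a retinoid-inducible acyltransferase that acts on phospholipids. It had 455, 777 and 453 in the resistant SNU449-Axl- cells and 76 to 215 elsewhere (4.68-fold, difference 2.23). FA2H, which hydroxylates fatty acids for sphingolipids, had 169, 190 and 125 against 20 to 81. In FA2H the Rego-resistant SNU449 cells were lowest (20, 23 and 26), so that the difference was 2.74 from them and 1.51 from the SNU449-Axl- control cells. The resistant populations thus stood at opposite ends for FA2H.

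TINAGL1, a matrix glycoprotein of basement membranes, had 719, 373 and 611 against 82 to 206 (4.37-fold, difference 2.13). RAB40B, a small GTPase that serves as a substrate receptor of a ubiquitin ligase, had 534, 799 and 596 against 152 to 267 (3.22-fold, difference 1.69). CLTRN, collectrin, a membrane protein that helps amino acid transporters to the surface, had 116, 99 and 87 against 24 to 40 (3.03-fold, difference 1.60). All 3 were called against each population by limma with Benjamini-Hochberg adjustment, with adjusted p = 0.00102, 0.00126 and 0.00102.

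Beyond the 15 genes that the rule ranked first on the high side, 6 further private genes outside the gene lists met its conditions and are named after their values were seen. These are MAT1A, PLPP3, RBM47, ATP1B1, TUBB2B and STOX2. MAT1A, the methionine adenosyltransferase of hepatocytes, had 143, 148 and 187 against 25 to 71, a difference of 1.82. RBM47, an RNA-binding protein of epithelial cells, had 175, 192 and 270 against 54 to 99, a difference of 1.45. ATP1B1, a subunit of the sodium pump, had 2073, 1960 and 1846 against 702 to 960, a difference of 1.30. The other three had differences of 1.59 (PLPP3), 1.55 (TUBB2B) and 1.59 (STOX2).

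On the low side, SFRP1 had the largest fall of the 6 genes called against each population. It encodes a secreted antagonist of Wnt ligands. SFRP1 (ENSG00000104332.12) had values of 83, 50 and 58 in the resistant SNU449-Axl- cells and of 243 to 638 in the other 9 libraries. Its level in the other 3 populations was alike, 8.62 ± 0.368 in the SNU449 control, 8.72 ± 0.691 in the Rego-resistant SNU449 and 8.66 ± 0.588 in the SNU449-Axl- control cells (SD, n = 3), against 5.98 ± 0.370. The difference was -2.69 (SE 0.269, limma, Benjamini-Hochberg adjusted p = 5.53e-06).

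MGA and ARMCX3 fell to near the floor. MGA, a large partner of MAX that represses transcription, had 26, 23 and 17 against 59 to 128, a difference of -2.05 (SE 0.193, limma, Benjamini-Hochberg adjusted p = 3.22e-06). Its solved mean normalized count was 6.22 in the resistant SNU449-Axl- cells and 72.1, 44 and 101 in the SNU449 control, Rego-resistant SNU449 and SNU449-Axl- control cells. ARMCX3, an X-linked protein of the outer mitochondrial membrane, had 22, 21 and 21 against 60 to 119, a difference of -2.0 (SE 0.156, limma, Benjamini-Hochberg adjusted p = 3.01e-07). Its solved count was 5.40 against 75, 36.1 and 79.7. In both genes little RNA was left in the resistant cells without Axl.

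LINC01444 and ANKRD30B lie close together on chromosome 18, between 14728272 and 14970468. LINC01444, a lncRNA, had 41, 29 and 47 against 79 to 179, a difference of -1.78. ANKRD30B, an ankyrin repeat gene, had 69, 75 and 58 against 147 to 234, a difference of -1.50. Both were called against each population (limma, Benjamini-Hochberg adjusted p = 0.00544 and 0.00422). The pair fell together, and 2 lncRNAs of the same interval, both with mean normalized counts under 10, were not called. S100A16, which is described with its family, was the sixth gene of this kind.

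**Figure D2:**
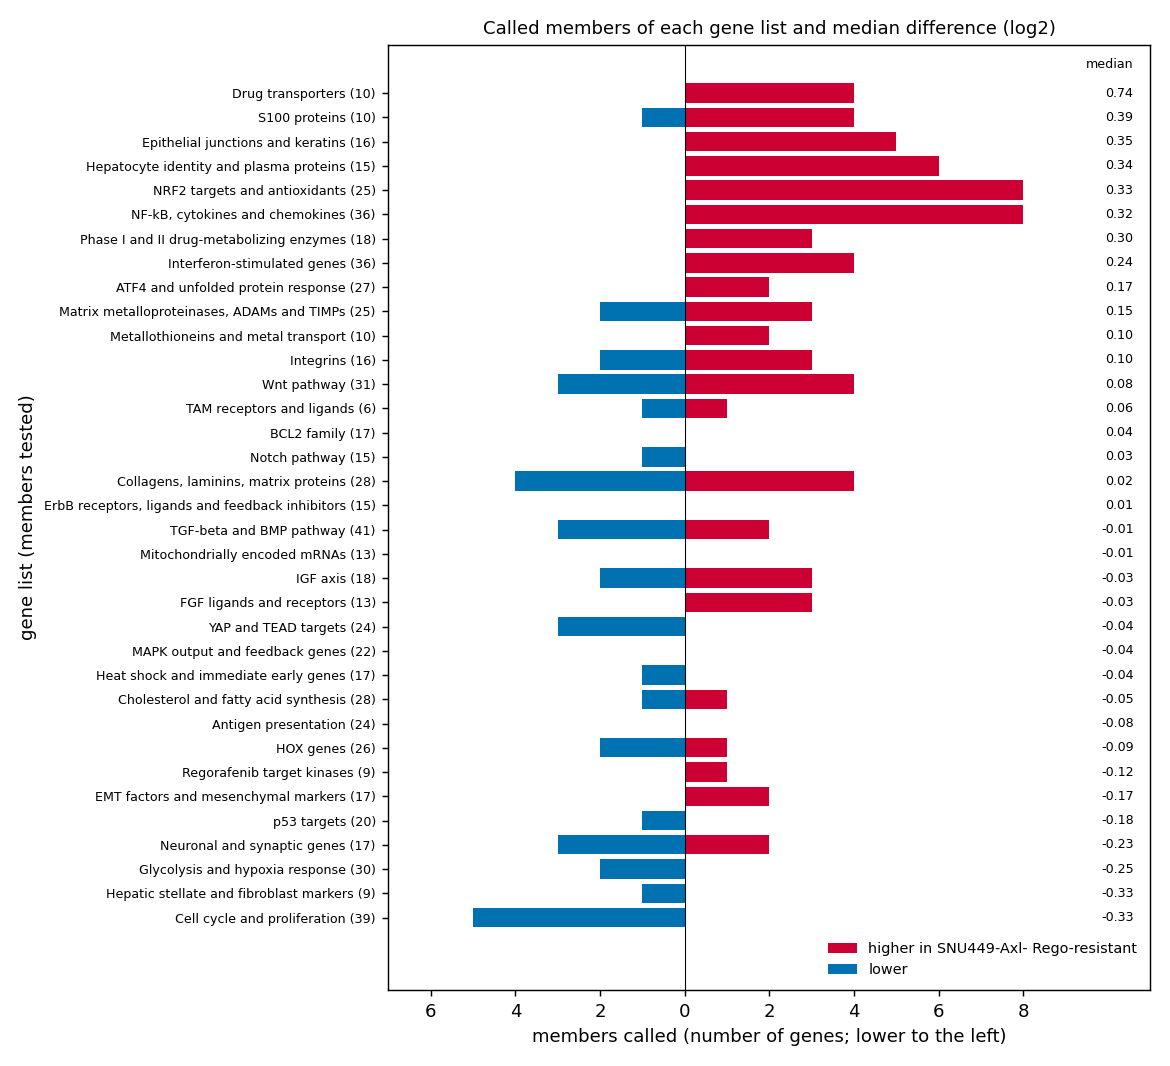
Number of genes called higher (to the right) or lower (to the left) against the mean of the other 3 populations in 35 gene lists with at least 5 members tested, ordered by the median difference printed at the right, with members tested in brackets. Drug transporters had the highest median, 0.74, and the cell cycle list was among those with the lowest, -0.33; on the scale centred on spike-in RNAs no cell cycle gene was called lower.

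Gene lists are described by the number of members called against the mean of the other 3 populations and by their median difference, beside 3.12% called higher, 1.62% called lower and a median of 0.01 over all genes. A member is said to be called or not by that contrast unless a population is named. Where no member of a list was called lower by limma, the members lower at an unadjusted p under 0.05 numbered 0 for hepatocyte genes, drug transporters, epithelial genes, NRF2 targets and Rego target kinases, 1 for NF-kB, interferon and metal genes, 2 for mesenchymal, FGF and ATF4 genes and 3 for drug-metabolizing enzymes. Where none was called higher, those higher unadjusted numbered 0 for cancer-testis antigens, 1 for the cell cycle, YAP, p53, Notch and stellate lists, 2 for glycolysis and 3 for heat shock.

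Hepatocyte identity and plasma protein genes had 6 of 15 called higher (40%) and none lower, against 3.12% of all genes called higher. The same 6 genes were private above, and the median difference of the 15 was 0.34 against 0.01 over all genes. The table held 15 of the 29 genes in the list. The 6 were FGB, RBP4, AMBP, FGG, FGA and FGL1. Among genes with a mean normalized count of at least 50, 2 were called, since FGG, RBP4, FGA and FGL1 lie under that count.

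All 3 chains of fibrinogen, the clotting protein made in the liver, were among them. FGB (ENSG00000171564.12, chromosome 4, 154563011 to 154572807), the beta chain, had values of 189, 547 and 294 in the resistant SNU449-Axl- cells, 36, 63 and 72 in the SNU449-Axl- control cells and 16 to 44 in the SNU449 cells. Its difference was 3.16 (SE 0.312, limma, Benjamini-Hochberg adjusted p = 5.50e-06). FGG, the gamma chain, had 91, 214 and 121 against 42, 54 and 61 in the SNU449-Axl- control cells and 14 to 31 in the SNU449 cells (difference 2.11). FGA, the alpha chain, had 34, 48 and 39 against 17 to 26 (difference 0.75), near the floor, with a mean normalized count of 4.41. In FGG the SNU449-Axl- control cells lay above both SNU449 populations. In FGB their mean level was higher, 5.80 against 4.74 in the SNU449 control and 4.85 in the Rego-resistant SNU449 cells, but the libraries overlapped. Library 2 of the resistant SNU449-Axl- cells had the highest value of all 3 chains.

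RBP4, which carries retinol in plasma, had 83, 125 and 156 against 18 to 42 (difference 2.08, limma, Benjamini-Hochberg adjusted p = 2.52e-06). AMBP, the precursor of alpha-1-microglobulin and bikunin, had 395, 620 and 285 against 80 to 186 (difference 1.64). FGL1, a fibrinogen-like protein secreted by hepatocytes, had 59, 66 and 46 against 19 to 39 (difference 0.97). These genes rose in cells in which ALB, TTR and HNF4A stayed too low to be listed. FOXA2 (difference -0.12), CPS1 (-0.11) and APOA1 (0.11) were not called. The list thus held genes that rose beside others for which no difference was called.

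**Figure D3:**
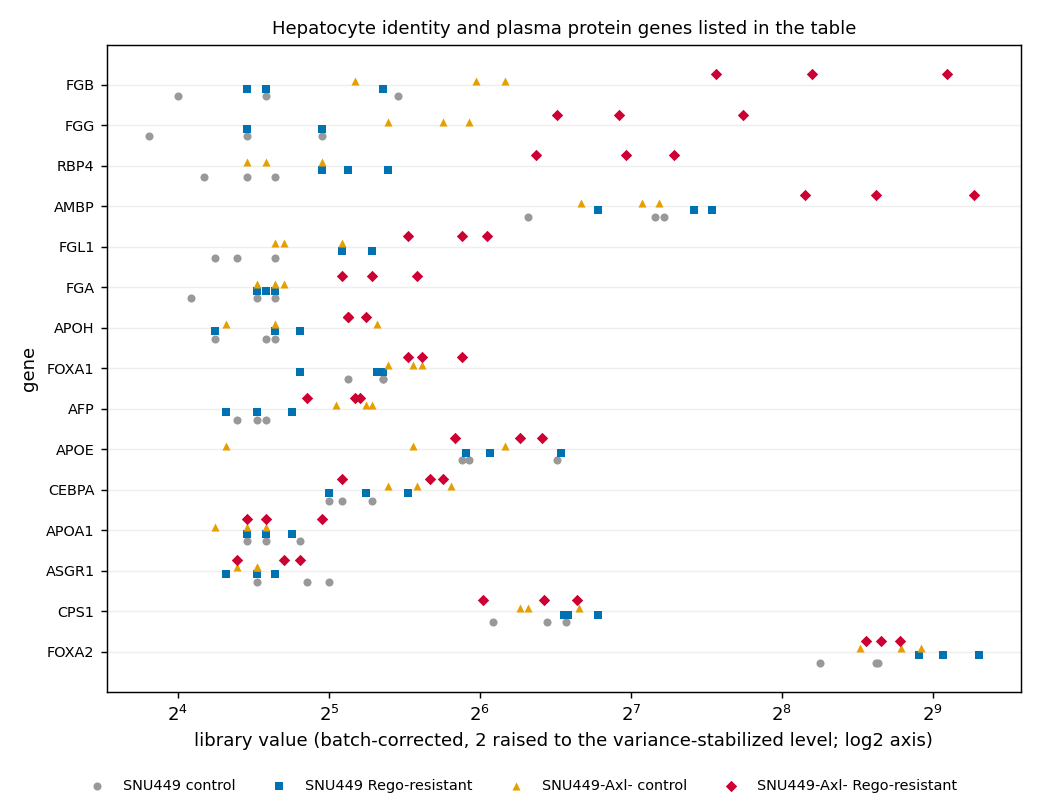
Library values on a log2 axis of the 15 genes of the hepatocyte and plasma protein list that are in the table, with 1 point per library and 3 libraries per population, ordered by the difference of the resistant SNU449-Axl- cells. In the 6 uppermost genes the red diamonds lie to the right of all other points, and in FOXA2 the Rego-resistant SNU449 cells are highest.

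Epithelial junction and keratin genes had 5 of 16 called higher and none lower, with a median difference of 0.35, and the count was 10 on the scale centred on spike-in RNAs. By population the median was 0.27 against the SNU449-Axl- control, 0.04 against the Rego-resistant SNU449 and 0.93 against the SNU449 control cells. The list as a whole thus lay near the Rego-resistant SNU449 cells and furthest from the SNU449 control cells. Beside DSP, TJP1 and KRT8 were private above. TJP1, the tight junction protein ZO-1, had 744, 678 and 751 against 245 to 422 (difference 1.20, limma, Benjamini-Hochberg adjusted p = 0.000235). KRT8, a keratin of simple epithelia, had 542, 444 and 439 in the resistant SNU449-Axl- cells, 320, 284 and 276 in the SNU449-Axl- control cells and 133 to 216 in the SNU449 cells (difference 1.25). KRT7 and KRT81 were called against the mean with the SNU449 control cells as the only low population. KRT81 had 50, 55 and 21 there and 690 to 1848 in the other 9 libraries, and its reads may be shared with the close copy KRT86.

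Epithelial markers as a cell type did not all follow. Of 5 defining markers, CDH1, EPCAM and KRT19 were not listed in the table, and only KRT8 and KRT18 were. Their summed library values were 2134, 1576 and 1515 in the resistant SNU449-Axl- cells, 1135, 1383 and 1602 in the SNU449-Axl- control cells and 826 to 1527 in the SNU449 cells, with KRT18 the most abundant. The populations overlapped in this sum. KRT18 had a difference of 0.33 and was not called (limma, Benjamini-Hochberg adjusted p = 0.439).

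Mesenchymal factors and markers had 2 of 17 called higher, S100A4 and FN1, and none lower, with a median difference of -0.17. FN1, fibronectin, had 2543, 4850 and 1351 in the resistant SNU449-Axl- cells and 2491, 1437 and 2923 in the SNU449 control cells. It had 336 to 650 in the Rego-resistant SNU449 and the SNU449-Axl- control cells. The resistant cells without Axl thus overlapped with the starting line, with a difference of 0.22 from it and of 2.47 from the SNU449-Axl- control cells. VIM (difference -0.31), CDH2 (-0.55), ZEB1 (0.22) and SPARC (-0.51) were not called, and SPARC was called lower against the SNU449 control cells alone (difference -1.03, limma, Benjamini-Hochberg adjusted p = 0.0341).

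Among drug transporters, 4 of 10 were called higher and none lower, and the median difference was 0.74. ABCG2, an efflux pump known to carry many kinase inhibitors, was private above, with 93, 88 and 96 against 37 to 59 (difference 0.97, limma, Benjamini-Hochberg adjusted p = 0.00190). SLC22A3, an organic cation transporter, was also private above, with 76, 78 and 78 against 19 to 62 (difference 1.10). ABCB1, the P-glycoprotein pump, had 188, 144 and 324 in the resistant SNU449-Axl- cells, 163, 131 and 177 in the SNU449-Axl- control cells, 102, 167 and 102 in the Rego-resistant SNU449 cells and 64, 63 and 34 in the SNU449 control cells (difference 1.05). ABCC3 had 641, 928 and 539, against 462 to 649 in the Rego-resistant SNU449 cells and 229 to 376 in both controls (difference 0.88). ABCB1 overlapped with the other Axl-deficient population, and ABCC3 with the other resistant one. Without library 1 of the resistant SNU449-Axl- cells, or among genes with a mean normalized count of at least 50, 2 were called, and on the scale centred on spike-in RNAs 7 were.

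Drug-metabolizing enzymes had 3 of 18 called higher and none lower, with a median difference of 0.30. CYP3A5, a cytochrome of the CYP3A family that oxidizes many drugs, was called against each population, with 189, 274 and 208 against 63 to 107 (difference 1.43, limma, Benjamini-Hochberg adjusted p = 2.96e-05 against the mean and 0.0107 against each). CYP1B1 had 885, 1182 and 503, and the SNU449 control cells had 793, 645 and 588, so that the populations overlapped (difference 1.08). CYP24A1, which degrades vitamin D, was high in both Axl-deficient populations, with 597, 641 and 359 in the resistant and 347, 449 and 716 in the control cells against 58 to 189 in SNU449 cells (difference 1.54). CYP2J2 and GSTA1 were private above and CYP1A1 was private below, with differences of 0.51, 0.37 and -0.64 that were not called; CYP2J2 was called against the SNU449-Axl- control cells alone (0.69). The count of 3 became 6 without the replicate block and 11 on the scale centred on spike-in RNAs.

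NRF2 targets and antioxidant genes had 8 of 25 called higher and none lower, with a median difference of 0.33. Only AKR1B10 of these was private. AKR1C1, an aldo-keto reductase that acts on steroids, had 13768, 21044 and 9502 in the resistant SNU449-Axl- cells and 8178, 6501 and 11995 in the SNU449 control cells, with 4374 to 7416 in the other 6 libraries (difference 1.12). AKR1C2 and AKR1C3 had differences of 0.79 and 1.08, and since these genes are close copies, the assignment of reads among them is uncertain. GCLC, the catalytic subunit for glutathione synthesis, had 291, 490 and 256 against 121 to 273 (difference 0.89). HMOX1, heme oxygenase, had a difference of 0.84, TKT of 0.84 and GPX4 of 0.88. NQO1 and TXNRD1, also classic targets, had differences of -0.16 and 0.10 and were not called, and TXNRD1 was called lower against the SNU449 control cells (-0.70). Library 2 of the resistant SNU449-Axl- cells held the highest value of all 8 genes among the 3 libraries, and without it 1 gene of the list was called, AKR1B10. Without library 1 of these cells 4 were called, and on the scale centred on spike-in RNAs 16 were.

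S100 proteins, small calcium-binding proteins mostly encoded together on chromosome 1, had 4 of 10 called higher and 1 lower, and the same 5 genes were private. S100A4, a marker of motile and mesenchymal cells, had 385, 397 and 345 in the resistant SNU449-Axl- cells. It had 137, 132 and 155 in the Rego-resistant SNU449 cells, 101, 146 and 88 in the SNU449-Axl- control cells and 45, 31 and 51 in the SNU449 control cells, so that each change alone and both together went with higher values. Its difference was 2.11 (SE 0.185, limma, Benjamini-Hochberg adjusted p = 1.46e-06). S100A6 followed the same order at a far higher level, with 11358, 10711 and 12490, then 6901 to 8169 in the 6 libraries with a single change and 2843 to 3132 in the SNU449 control cells (difference 1.04).

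S100A3 and S100P were lower in level, with 112, 63 and 95 against 23 to 58 (difference 1.25) and 35, 74 and 43 against 17 to 32 (difference 0.96). S100A16 moved the other way. It had 279, 199 and 256 against 465 to 613 in the other 9 libraries, a difference of -1.10 (SE 0.157, limma, Benjamini-Hochberg adjusted p = 0.000324 against the mean and 0.0206 against each population). The other 3 populations had nearly the same level of S100A16, 9.05 ± 0.189, 8.96 ± 0.0869 and 9.09 ± 0.159 (SD, n = 3). Neighbouring members of 1 gene family thus moved in opposite directions. Among genes with a mean normalized count of at least 50, 2 members were called higher.

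NF-kB targets, cytokines and chemokines had 8 of 36 called higher and none lower, with a median difference of 0.32, and 4 were private above. CX3CL1, fractalkine, a chemokine bound to the cell surface, had 49, 50 and 56 against 20 to 27 (difference 1.21, limma, Benjamini-Hochberg adjusted p = 2.58e-05), with a mean normalized count of 6.05. BIRC3, an inhibitor of cell death induced by NF-kB, had 799, 1120 and 657 against 214 to 504 (difference 1.30). CXCL5, a chemokine for neutrophils, had 157, 156 and 71 against 16 to 68 (difference 1.56), and IL1R1, the receptor of interleukin 1, had 61, 98 and 71 against 26 to 58 (difference 0.81). IL18 differed in its pattern, with 298, 411 and 380 in the resistant and 362, 287 and 277 in the control SNU449-Axl- cells against 97 to 118 in SNU449 cells. SOD2, IL1B and CCL20 had differences of 0.89, 0.57 and 0.59. The count of 8 became 5 without library 1 or 3 of the resistant SNU449-Axl- cells, library 1 or 2 of the Rego-resistant SNU449 cells or library 2 of the SNU449-Axl- control cells, and 3 without library 2 of the resistant SNU449-Axl- cells. It was 3 among genes with a mean normalized count of at least 50 and 21 on the scale centred on spike-in RNAs.

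Interferon-stimulated genes had 4 of 36 called higher and none lower, with a median difference of 0.24. BST2, tetherin, which holds enveloped viruses at the cell surface, was called against each population, with 118, 121 and 73 against 27 to 54 (difference 1.39, limma, Benjamini-Hochberg adjusted p = 0.000410 against the mean and 0.0292 against each). IFI44L had 97, 134 and 64 against 26 to 59 (difference 1.07) and EPSTI1 had 68, 66 and 59 against 27 to 51 (difference 0.81). GBP2, a guanylate-binding protein, had 624, 664 and 451, near the 296 to 504 of the SNU449 control cells and far from the 129 to 251 of the other 6 libraries (difference 1.35). The count of 4 became 2 without library 1 or 2 of the resistant SNU449-Axl- cells, 7 without library 1 of the SNU449-Axl- control cells, 1 among genes with a mean normalized count of at least 50, and 19 on the scale centred on spike-in RNAs. Genes of antigen presentation had 0 of 24 called by limma, with 3 higher and 4 lower at an unadjusted p under 0.05, and a median of -0.08.

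The promoter of BST2 is shown because it was the only gene of this list called against each population, and it holds the core of the interferon-stimulated response element, searched on both strands as GAAA, any 2 bases and GAAA, as 2 overlapping matches given in capitals. The RefSeq window, build GRCh38.p14, minus strand, is chr19:17405581-17405880, and the first match starts 130 bases before the start of the gene. Among 35116 promoters, 3.57% hold the core, and of the 20 found for genes named by rule it was present in that of BST2.
BST2: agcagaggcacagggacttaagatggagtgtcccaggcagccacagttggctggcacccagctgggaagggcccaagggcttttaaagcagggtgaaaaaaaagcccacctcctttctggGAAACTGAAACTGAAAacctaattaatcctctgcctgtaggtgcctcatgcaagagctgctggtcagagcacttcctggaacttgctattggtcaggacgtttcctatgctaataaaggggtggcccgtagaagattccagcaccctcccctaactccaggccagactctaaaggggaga

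Metalloproteinases, ADAMs and their inhibitors had 3 of 25 called higher and 2 lower. Next to MMP7, ADAMTS12 was private above, with 103, 93 and 176 against 38 to 81 (difference 0.95). SERPINE2, an inhibitor of thrombin and plasmin, was high in both Axl-deficient populations (difference 1.03). PLAUR, the urokinase receptor, had 76, 57 and 90 against 79 to 247 (difference -0.93), and ADAM19 had 142, 101 and 102 against 96 to 1133 (difference -1.42). Without library 1 of the resistant SNU449-Axl- cells 1 gene of the list, in place of 3, was called higher, 5 were without the replicate block, and on the scale centred on spike-in RNAs 11 were.

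Integrins, the receptors for matrix, had 3 of 16 called higher and 2 lower, and 4 private above and 1 below. ITGB4, the partner of ITGA6 in hemidesmosomes, had 336, 439 and 419 against 68 to 253 (difference 1.70, limma, Benjamini-Hochberg adjusted p = 0.00141). ITGA6 had 426, 382 and 376 against 175 to 370 (difference 0.59), close to the 358 to 370 of the Rego-resistant SNU449 cells. Both chains of the laminin-binding integrin were therefore private above. ITGA5, the alpha chain of the fibronectin receptor, had 21, 19 and 24 in the resistant SNU449-Axl- cells, 43, 38 and 43 in the Rego-resistant SNU449 cells, 105, 101 and 77 in the SNU449-Axl- control cells and 65, 81 and 74 in the SNU449 control cells (difference -1.58, limma, Benjamini-Hochberg adjusted p = 5.53e-06). ITGB3 was low in both resistant populations, 55 to 76 and 63 to 65 against 125 to 256 in the controls (difference -0.90). ITGB2 had a difference of 0.86, and ITGAV was private above with a difference of 0.50 that was not called. Without library 1 or 2 of the resistant SNU449-Axl- cells, or among genes with a mean normalized count of at least 50, 1 integrin was called lower, and on the scale centred on spike-in RNAs 6 were called higher.

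Collagens, laminins and matrix proteins had 4 of 28 called in each direction and a median of 0.02. LAMA3, the alpha chain of the laminin that epithelial hemidesmosomes bind, was the only private one, with 89, 100 and 84 against 35 to 81 (difference 0.69). LAMA4 was low in both resistant populations, with 24, 23 and 28 without Axl and 38, 33 and 21 with it, against 309 to 666 in the controls (difference -2.73). COL18A1, LAMA5 and COL6A1 had differences of 0.98, 0.84 and 0.88, and COL13A1, COL5A2 and COL1A2 of -1.35, -0.66 and -0.64. Without library 1, 2 or 3 of the resistant SNU449-Axl- cells 1 was called higher, and without library 1 or 2 of them, or on the scale centred on spike-in RNAs, 2 were called lower; that scale had 9 called higher, and without the replicate block 7 were.

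In the list of stellate cell and fibroblast genes, 1 of 9 was called, COL1A2, which was lower. Of the defining markers of these cells 5 of 6 were listed, without DCN and with COL1A1 as the most abundant. Their summed values were 315, 263 and 412 in the resistant SNU449-Axl- cells, 638, 2255 and 2608 in the SNU449-Axl- control cells, 819, 525 and 1010 in the Rego-resistant SNU449 cells and 582, 386 and 166 in the SNU449 control cells. None of the 5 was called against the mean, while COL1A1 was called lower against the SNU449-Axl- control cells (difference -2.79, limma, Benjamini-Hochberg adjusted p = 0.0129) and LUM against the SNU449 control cells (-0.62).

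Wnt pathway genes had 4 of 31 called higher and 3 lower, with a median of 0.08. Beside SFRP1, DKK1, another secreted antagonist, was lower against the mean, with 884, 1532 and 556 against 871 to 1609 in the Rego-resistant SNU449 cells and 1975 to 5884 in both controls (difference -1.42). WNT5A, a ligand of the noncanonical branch, was low in both resistant populations, 96 to 141 and 72 to 127, against 369 to 755 (difference -1.23). Of the 3, SFRP1 was the one private to the resistant cells without Axl. WNT7B, a ligand of the canonical branch, was low in the SNU449 control cells (62 to 70) and 475 to 872 in the other 9 libraries (difference 1.06). SFRP4, TCF7 and ROR2 had differences of 0.95, 0.63 and 0.62. The count of 4 called higher became 2, 1 and 1 without libraries 1, 2 and 3 of the resistant SNU449-Axl- cells, 1 among genes with a mean normalized count of at least 50, and 14 on the scale centred on spike-in RNAs.

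FGF ligands and receptors had 3 of 13 called higher and none lower, with a median of -0.03. FGF12 had 89, 91 and 128 against 27 to 63 (difference 1.18), and FGFR4, the receptor of FGF19 on hepatocytes, had 164, 181 and 159 against 72 to 152 (difference 0.78). Both were private above. FGFR1, a kinase that Rego is known to inhibit, was high in both Axl-deficient populations, with 1499, 1863 and 1226 in the resistant and 1385, 1031 and 1096 in the control cells against 434 to 699 in SNU449 cells (difference 1.16, limma, Benjamini-Hochberg adjusted p = 0.000567). It was the only 1 of 9 listed Rego target kinases that was called. On the scale centred on spike-in RNAs 6 FGF genes were called higher.

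The IGF axis had 3 of 18 called higher and 2 lower. IGFBP3, a carrier of IGFs, had 1284, 1747 and 1605 against 331 to 897 (difference 1.49), and IRS2, a docking protein of the insulin and IGF receptors, had 2020, 2449 and 2543 against 706 to 1860 (difference 1.04). Both were private above. PAPPA, which cleaves IGF-binding proteins, had a difference of 1.58, and STC1, which inhibits PAPPA, had 67, 59 and 61 against 55 to 444 (difference -1.80). IGFBP5 set the resistant populations apart, with 29, 23 and 45 without Axl and 5599, 10422 and 3564 with it, while both controls had 18 to 29. Its call as lower thus rests on the Rego-resistant SNU449 cells alone.

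TGF-beta and BMP genes had 2 of 41 called higher and 3 lower. GREM1, a secreted BMP antagonist, was private below, with 53, 55 and 41 against 73 to 204 (difference -1.34), and TGFBR3, betaglycan, was private above, with 157, 178 and 158 against 71 to 111 (difference 0.86). INHBB was high in both resistant populations (difference 1.87), and BMP4 and FST had differences of -0.92 and -0.83. The median over the 41 genes was -0.01.

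Cell cycle and proliferation genes had 5 of 39 called lower and none higher, with a median difference of -0.33, and on the scale centred on spike-in RNAs 0 were called lower and without the replicate block 8. CCNB2, cyclin B2, had 185, 98 and 180 against 199 to 386 (difference -0.82, limma, Benjamini-Hochberg adjusted p = 0.0333). CDC20, an activator of the anaphase-promoting complex, had 390, 315 and 424 against 474 to 745 (-0.63), BUB1 had 117, 105 and 109 against 119 to 214 (-0.65) and PLK1 had 305, 297 and 325 against 335 to 616 (-0.58). These mitotic genes were private below, and AURKA was called without being private (-0.60). MKI67 had a difference of -0.55 and CDKN1A, an inhibitor of cyclin-dependent kinases, of -0.78, and neither was called; CDKN1A was called lower against the SNU449 control cells (-1.07). The count of 5 became 0 without library 1 or 2 of the resistant SNU449-Axl- cells, 2 without library 2 of the SNU449 control, library 1 of the Rego-resistant SNU449 or library 2 of the SNU449-Axl- control cells, and 3 without library 2 of the Rego-resistant SNU449 or library 3 of the resistant SNU449-Axl- cells. Fewer dividing cells and less of these mRNAs in each cell cannot be told apart in bulk RNA.

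Glycolysis and hypoxia genes had 2 of 30 called lower, PKM (-0.59) and HK1 (-0.52), none higher, and a median of -0.25. By population the median was -0.21 against the SNU449-Axl- control, 0.01 against the Rego-resistant SNU449 and -0.49 against the SNU449 control cells. PKM was private below and HK1 was not. YAP and TEAD targets had 3 of 24 called lower, TEAD3, FOXF2 and AXL itself, of which TEAD3 was private below. Genes of the TAM receptors and their ligands had 1 of 6 higher, LGALS3 (0.72), and 1 lower, AXL, and neither was private. AXL is the disrupted gene, with a difference of 0.22 from the SNU449-Axl- control cells, so that its call in both lists follows from the genotype. Neuronal and synaptic genes had 2 of 17 higher, SCN9A (1.58) and GRIK2 (0.50), and 3 lower, KCNMA1 (-1.38), CACNA1A (-1.57) and UCHL1 (-1.94). KCNMA1 and CACNA1A, a potassium and a calcium channel, were private below and GRIK2 was private above, while SCN9A and UCHL1 were not private. HOX genes had 1 of 26 higher, HOXC13 (0.65), and 2 lower, HOXC8 (-0.92) and HOXA10 (-0.72), both private below.

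ATF4 and unfolded protein response genes had 2 of 27 higher, VLDLR (1.33) and PSPH (0.68). Metallothioneins and metal transporters had 2 of 10 higher, SLC39A14 (0.79) and MT1F (0.58). Cholesterol and fatty acid synthesis had 1 of 28 higher, HMGCS1 (0.73), and 1 lower, ACLY (-0.57). Among p53 targets 1 of 20 was lower, AEN (-0.78), and among Notch genes 1 of 15, HES1 (-1.09). Among heat shock and immediate early genes 1 of 17 was lower, BAG3 (-0.87), and among cancer-testis antigens 1 of 2, PAGE1 (-1.05). The median of these 2 antigens was 0.1 against the SNU449-Axl- control, -1.56 against the Rego-resistant SNU449 and -0.22 against the SNU449 control cells. VLDLR, HMGCS1, AEN and BAG3 were private, while PSPH, SLC39A14, MT1F, ACLY, HES1 and PAGE1 were called without being private.

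Limma called 0 of 22 MAPK output and feedback genes (median -0.04), and 5 were higher and 2 lower at an unadjusted p under 0.05. It called 0 of 15 ErbB receptors, ligands and feedback inhibitors (median 0.01), with 2 and 1 unadjusted, and 0 of 17 BCL2 family genes (median 0.04), with 2 and 0. These are groups on which kinase inhibition or survival under it is known to bear. It called 0 of 13 mitochondrially encoded mRNAs (median -0.01), with 0 and 3 unadjusted, and 0 of 4 leukocyte markers (median 0.04) and 0 of 1 endothelial marker (-0.13), with 0 unadjusted in both. ERBB3 was private above, with 55, 57 and 54 against 33 to 47, and its difference of 0.48 was not called (limma, Benjamini-Hochberg adjusted p = 0.0785).

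The private genes were not evenly spread over the genome. By position in GENCODE release 44, the share private above was 7.90% on chromosome 8 (44 of 557 genes), 6.18% on chromosome 13, 5.73% on chromosome 4 and 5.33% on chromosome 9, against 2.98% of all genes. On chromosome 9 none of 600 genes was private below. The share private below was 6.67% on chromosome 15 (33 of 495), 5.01% on chromosome 20, 4.82% on chromosome 19 and 4.33% on chromosome 16, against 1.87% of all genes. On chromosome 20, 2 genes were private above and 20 below. The median difference over all genes of chromosome 20 was 0.0 against the SNU449-Axl- control, -0.2 against the Rego-resistant SNU449 and -0.22 against the SNU449 control cells. In the same order it was 0.27, 0.08 and 0.0 on chromosome 4, 0.29, 0.05 and 0.02 on chromosome 9, 0.06, 0.22 and 0.11 on chromosome 8 and -0.13, -0.25 and 0.05 on chromosome 19, so that these medians set the resistant cells apart from some populations more than from others. DNA copies were not measured, and their part was not tested.

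**Figure D4:**
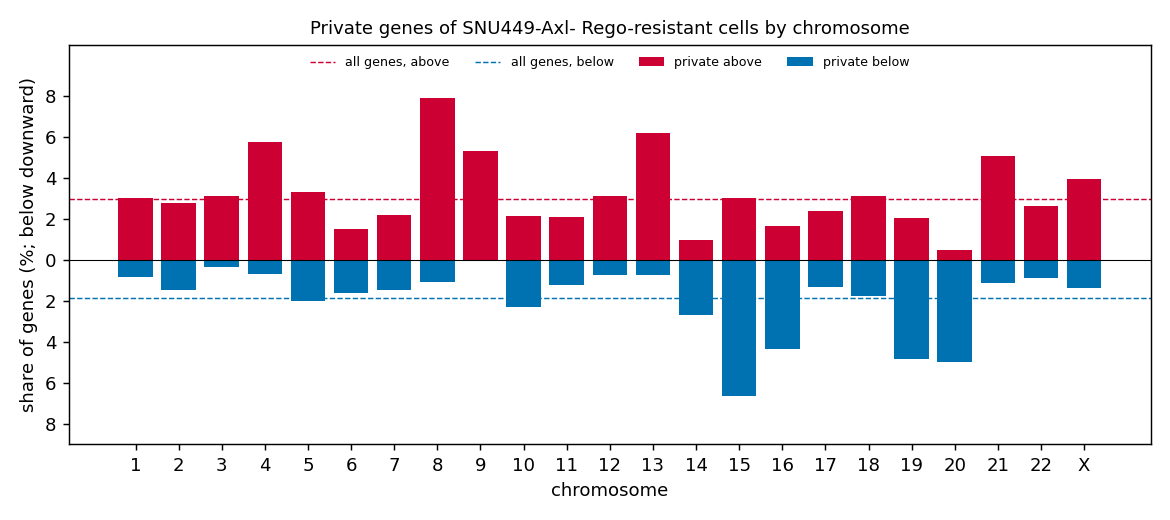
Share of the tested genes of each chromosome that were private to the resistant SNU449-Axl- cells, above (upward) and below (downward), in percent, with dashed lines at the shares over all genes. Chromosomes 8, 13, 4 and 9 have the tallest bars above and chromosomes 15, 20, 19 and 16 the longest below; the bars below hold relative to the bulk of genes, since 15 genes in all were private below on the scale centred on spike-in RNAs.

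In windows of 10 Mb, of which 294 held at least 10 genes, 2 had over 20% of their genes private above and 0 had over 20% private below. The first was the start of chromosome 15, from 20 to 30 Mb, with 11 of 25 genes (44%). The other was on chromosome 8, from 10 to 20 Mb, with 8 of 38 genes (21.1%). No gene was private in 52 of the windows. The window on chromosome 15 is the beginning of its long arm, next to the centromere.

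Along chromosome 15, 15 genes with a mean normalized count of at least 20 lie from ENSG00000274253 at 22757835 to the end of TJP1 at 29968915. Of these 11 were private above, 9 were called higher and 13 had a positive difference, with a median of 0.68. The median was 0.47 against the SNU449-Axl- control cells, 0.83 against the Rego-resistant SNU449 cells and 0.67 against the SNU449 control cells. Without library 1 of the resistant SNU449-Axl- cells 3 were called and without library 3 of them 4. The count of private genes was 11 with any 1 of the 12 libraries left out. The next 15 genes, from FAN1 to CDIN1, had 1 private above, KLF13, and 1 below, GREM1, and a median of -0.20. The other 287 genes had 2 private above and 28 below and a median of -0.18. The stretch was noticed after the values were seen, so its counts are a description.

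The genes of this stretch do different things. NIPA1, a magnesium transporter, had 177, 204 and 179 against 87 to 135, and CYFIP1, a regulator of actin and translation, had 343, 303 and 343 against 105 to 257. UBE3A, a ubiquitin ligase imprinted in neurons, had 1070, 1107 and 1134 against 528 to 885. HERC2, another ubiquitin ligase, had 309, 262 and 274 against 127 to 222. Their differences were 0.75, 0.86, 0.68 and 0.74. At the far end lie TJP1 (1.20) and, next to it, the lncRNA ENSG00000256802, which had 355, 432 and 423 against 63 to 160 (difference 1.91, limma, Benjamini-Hochberg adjusted p = 4.63e-07). SNHG14 (-0.11) and APBA2 (-0.33) were the 2 genes of the stretch with negative differences.

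**Figure D5:**
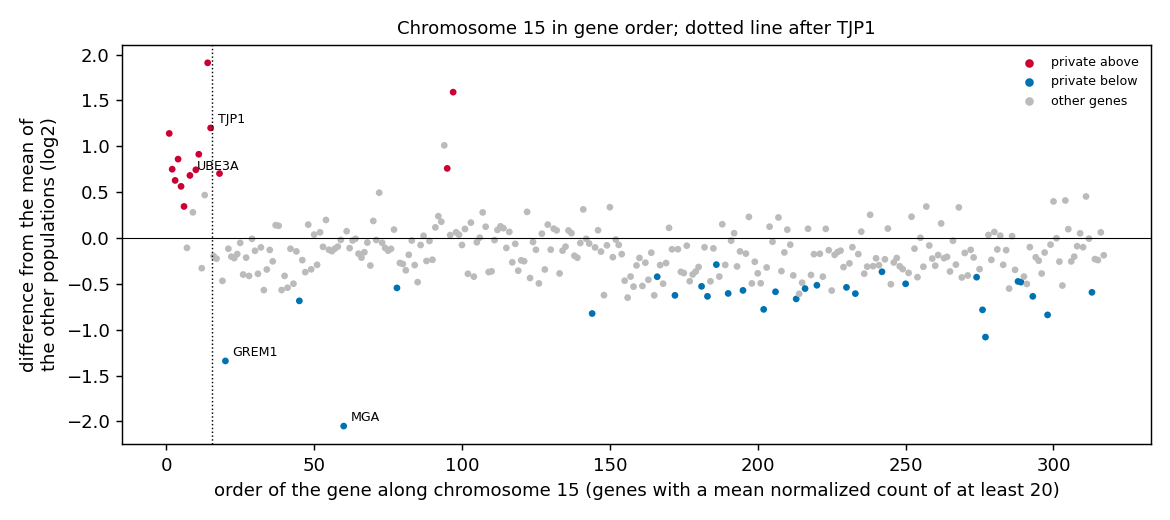
Difference (log2) between the resistant SNU449-Axl- cells and the mean of the other 3 populations for the genes of chromosome 15 in their order along it, 1 point per gene with a mean normalized count of at least 20. The 15 genes before the dotted line have a median of 0.68, with 11 private above, and the 287 genes from MEIS2 on have a median of -0.18, relative to the bulk of genes.

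In the window of chromosome 8, 7 neighbouring genes from SLC7A2 to ASAH1 were all called higher, 5 of them private above, with a median of 0.92. MTUS1, a microtubule-associated protein, had 631, 648 and 493 against 36 to 346 (difference 2.10). FGL1 of the plasma protein list, SLC7A2, PDGFRL and the lncRNA ENSG00000253671 were the other private genes (differences 0.97, 0.92, 0.89 and 0.98). PCM1 and ASAH1 were called with differences of 0.66 and 0.83. Without library 2 of the resistant SNU449-Axl- cells 3 of the 7 were called, and among genes with a mean normalized count of at least 50, 2 were called and 1 was private. This run, too, was chosen after its values were seen.

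The protocadherin beta genes form a cluster on chromosome 5, from 141094606 to 141227759, and encode single-exon cell adhesion proteins of close sequence, so that reads may be assigned to the wrong copy. Of 13 in the table, 8 were private below and 5 were called lower, with a median of -0.48, and on the scale centred on spike-in RNAs 1 was private below and 2 were called. PCDHB5 had 46, 35 and 32 against 63 to 116 (difference -1.23), and PCDHB2 had 84, 80 and 73 against 95 to 164 (difference -0.68). In the flanking alpha and gamma clusters, 0 of 4 and 1 of 7 genes were private below and none was called, while all 4 and all 7 differences were negative, with medians of -0.29 and -0.31, beside 10 of 13 negative in the beta cluster. The count of 5 became 3 among genes with a mean normalized count of at least 50, where 3 were private, and also without library 1 of the SNU449 control or of the Rego-resistant SNU449 cells, 2 without library 2 of the SNU449-Axl- control or library 3 of the resistant SNU449-Axl- cells, and 1 without library 1 or 2 of the latter. The cluster was chosen after its values were seen.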

How the data were processed

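RNA of 4 populations was sequenced in 12 QuantSeq 3′ libraries. The authors trimmed reads with cutadapt 4.0, aligned them with STAR 2.5.3a to GRCh38 with GENCODE annotation and spike-in sequences, removed weakly expressed genes and fitted DESeq2 with the preparation date. In each of the 8 deposited tables the authors' library values are a score, 2 raised to the variance-stabilized level with the preparation effect removed, rounded and made separately for each table. The deposited baseMean is a signal, the mean over the libraries of a table of read counts divided by size factors. Columns with the authors' fold changes, p-values and group averages were not used. The depth per library is unknown. In log2 terms the library values rose by 0.38 per doubling of the mean count at counts of 8 to 32 and by 0.97 at 512 to 4096.

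One of the 2 tables with 12 libraries was used, with 15601 genes. Levels, log2(value + 1), went into a linear model (limma 3.58.1, R 4.3.3, moderated with a trend) that held the replicate number as a block, since the values appear to have been corrected along it; whether it stands for the preparation date is unknown. Deviations of libraries with the same number were correlated at -0.09 to -0.48 between populations. Contrasts set the resistant SNU449-Axl- cells against the mean of the other 3 populations and against each. The test against each population took the largest of the 3 p-values where all differences had 1 sign. All p-values were adjusted over all genes with Benjamini-Hochberg, and an adjusted p under 0.05 was called.

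Named by rule were AXL, the 15 private genes above and up to 15 below with the largest of the smallest pairwise differences among genes called in both tests with a mean normalized count of at least 20 (6 qualified below), and private members of the gene lists called in both tests, 26 genes in all. Other genes are examples of lists or positions and were chosen after their values were seen. The members and all 38 lists were chosen with earlier results of these data known. In the hepatocyte list 1 gene is not reported here; it was taken out after the results were known, and all counts of that list are without it. Y-linked genes and XIST were left out of the named genes. Positions come from GENCODE release 44 (15568 genes matched by identifier, 33 not). Solved counts are least-squares solutions from the 6 tables of pairs, whose mean over the populations differed from the 12-library signal by a median of 0.594%. RefSeq promoters of GRCh38.p14 were matched by symbol for 20 of the 26 genes, not for AKR1B10, PLAAT4, ENSG00000256802, SFRP1, ARMCX3 and CX3CL1. Python 3.11.15 with pandas 2.3.3, numpy 2.4.6, scipy 1.17.1 and matplotlib 3.10.9 was used for counts and plots.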

Additional observations from a re-analysis of the deposited data

Results flagged for a closer look

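Of the 26 genes named by rule, 21 had a difference between the Rego-resistant and the control population of the SNU449-Axl- cells that was unlike that of the SNU449 cells (limma interaction, Benjamini-Hochberg adjusted p from 1.83e-05 to 0.0354). Over all 15601 genes the interaction was called for 916 (5.87%). The named genes had been chosen for standing apart in the same libraries, so that the result describes them and is no independent evidence, and other differences between separately kept populations are part of it. In 15 genes the difference was more positive in the SNU449-Axl- cells, in log2 by 3.72 for SPP1, 3.38 for DSP, 3.34 for AKR1B10, 3.07 for PLAAT4, 2.78 for FA2H, 2.68 for FYB1, 2.54 for CLGN, 2.38 for FGB, 2.12 for MMP7, 1.70 for CLTRN, 1.68 for RAB40B, 1.46 for RBP4, 1.36 for TINAGL1, 1.28 for BST2 and 1.12 for CX3CL1. In 6 it was more negative, by -2.78 for SFRP1, -2.32 for LINC01444, -2.10 for MGA, -1.65 for ARMCX3, -1.31 for ANKRD30B and -1.07 for S100A16. For AXL (-0.24), S100A4 (0.03), ENSG00000256802 (0.67), TJP1 (0.79) and CYP3A5 (0.90) the interaction was not called.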

How the results depend on the processing

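The 26 genes named by rule kept their direction and their call against the mean of the others in all 515 alternative values (no replicate block, 2 other scalings, 2 other pseudocounts, a filter, the other 12-library table, no trend and each library left out). Apart from AXL, the disrupted gene, they had been chosen because they were private and called in both tests on the same libraries. Keeping the weaker of the 2 calls was thus largely set by the choice and is no independent evidence. Of the 25 that were also called against each population, 11 lost that call in at least 1 alternative, 49 of 495 values in all, most often without library 2 of the resistant SNU449-Axl- cells (10 genes), and 2 lost it when centred on spike-in RNAs (LINC01444 and S100A16). No direction turned. Counts moved more. Without the replicate block, which treats libraries as independent although their deviations are tied, 853 genes were called higher and 595 lower than the mean of the others, 59 and 20 against each population, and 1552, 1503 and 1979 against the SNU449-Axl- control, Rego-resistant SNU449 and SNU449 control cells. Centred on spike-in RNAs, which shifts all genes, these were 4106 and 62 against the mean, 130 higher against each, 3843 against the Rego-resistant SNU449 and 6771 against the SNU449 control cells, and 1767 genes were private above and 15 below. With a mean normalized count of at least 50, which leaves fewer genes, 253 were higher than the mean, 17 higher against each, 227 private above, 450 called against the Rego-resistant SNU449 and 622 against the SNU449 control cells.

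Leaving out 1 library at a time gave 173 to 529 genes higher and 53 to 304 lower than the mean, 15 to 32 higher and 4 to 8 lower against each population, 205 to 891 called against the SNU449-Axl- control, 219 to 826 against the Rego-resistant SNU449 and 576 to 1226 against the SNU449 control cells, and 492 to 765 private above and 313 to 552 below. Fewer libraries make the rule for private genes easier to pass, while the counts of the tests moved both ways. Compressed low levels limit differences of genes with few counts.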
